A study of Arabidopsis thaliana with 16 samples.

Results

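The 8 genes described here are the jasmonate transcription factors MYC2 (AT1G32640), MYC3 (AT5G46760), MYC4 (AT4G17880) and MYC5 (AT5G46830), their repressing relatives JAM1 (AT2G46510), JAM2 (AT1G01260) and JAM3 (AT4G16430), and the hormone receptor COI1 (AT2G39940). They were chosen by locus identifier, and all 8 are among the 32833 loci of the deposited table for Arabidopsis thaliana. The table holds 16 libraries of stranded mRNA in 8 groups of 2 biological replicates. The seedling groups, whole plants 10 days old at ZT16, are wild-type Col-0 and 35S:CO, which overexpresses the flowering-time regulator CONSTANS (CO) from the viral 35S promoter. The petal groups are Col-0, 35S:CO and co-10, labelled a null mutant of CO, each at ZT4 and ZT16. No seedling library of co-10 and no seedling library at ZT4 was analysed here. All plants grew on compost under long days of 16 h light and 8 h dark, at 22 °C by day and 18 °C by night. ZT is the number of hours after lights on, so that ZT4 lies in the morning and ZT16 at the end of the light period. Neither the age of the petals nor the number of flowers behind a library was given in the labels.

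Jasmonate is a lipid-derived hormone of wounding, defence, stamen development and senescence. Its active form, jasmonoyl-isoleucine, joins the F-box protein COI1 to a JAZ repressor, which is then degraded. The JAZ proteins otherwise hold MYC2 and its relatives inactive by recruiting the TOPLESS corepressor through NINJA. MYC2, MYC3 and MYC4 are activators of largely shared targets and bind the G-box element, and MYC5 acts with them in stamen development. The JAM proteins bind the same kind of element and repress, so that they oppose the MYC factors. In petals and stamens, jasmonate also acts through the MYB factors MYB21 and MYB24.

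The 7 bHLH members share the basic region with which this family contacts DNA. The 39 coding bases around it are shown because they set out how alike the MYC and JAM sequences are. Capitals mark the codons of the region's core, by which it was located in the coding sequences of TAIR10.1 from RefSeq.
MYC2: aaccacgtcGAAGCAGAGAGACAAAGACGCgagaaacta
MYC3: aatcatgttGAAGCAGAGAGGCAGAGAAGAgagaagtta
MYC4: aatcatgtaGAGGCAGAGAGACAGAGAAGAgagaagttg
MYC5: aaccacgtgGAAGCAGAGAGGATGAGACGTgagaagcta
JAM1: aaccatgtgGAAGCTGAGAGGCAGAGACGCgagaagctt
JAM2: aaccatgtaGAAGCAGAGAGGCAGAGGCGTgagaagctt
JAM3: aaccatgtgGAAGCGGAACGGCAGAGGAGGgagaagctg
Of the 39 bases, 30 in MYC3, 29 in MYC4 and 32 in MYC5 were the same as in MYC2. The JAM sequences shared 32 bases with MYC2 in JAM1, 31 in JAM2 and 27 in JAM3, the lowest count of the 6. Over the whole protein the families separated. MYC3 and MYC4, the closest pair, had 74.2% identical residues, and JAM1 and JAM2 had 55.1%, whereas pairs of a MYC and a JAM protein had 35.6% to 42.1%. No stretch of 75 bases was shared by any pair of members, and the longest shared run was 32 bases, between MYC3 and MYC4.

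In TAIR10.1, MYC2 lies on chr1:11798119-11801407 on the minus strand and MYC3 on chr5:18974022-18976590 on the plus strand. MYC4 lies on chr4:9933326-9935685 (minus) and MYC5 on chr5:19002564-19004384 (plus). JAM1 lies on chr2:19090953-19093373 (minus), JAM2 on chr1:108946-111699 (plus), JAM3 on chr4:9267260-9269178 (plus) and COI1 on chr2:16672493-16675864 (minus). MYC2, MYC3, MYC4, MYC5, JAM1 and JAM2 are annotated with 1 exon, JAM3 with 2 and COI1 with 3.

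Levels are FPKM, fragments scaled to transcript length and to the fragments mapped in the library, as the authors deposited them. Differences are log2 differences of FPKM + 1, which understate the change of low genes, and were fitted with limma, a linear model with moderated variances, to all genes that reached 1 FPKM in 2 libraries or more. A gene was called at a two-sided Benjamini-Hochberg adjusted p under 0.05 over all genes of its fit. Estimated depth was 55990000 to 63350000 reads in seedlings and 5220000 to 22030000 in petals, with the lowest estimate in co-10 ZT4 replicate 2. By these estimates 200 to 3665 reads lay behind a member's value in seedlings and 81 to 2965 in petals, leaving aside values of 0 and MYC5 in petals. Of the summed FPKM, 0.108% to 0.610% in seedlings and 3.82% to 48.8% in petals came from ribosomal RNA loci. CO stood at 297 to 625 FPKM in the 35S:CO libraries and at 2.10 FPKM or less in all others, so the co-10 label could not be checked by its level. The petal identity genes AP3, PI, SEP1, SEP2 and SEP3 together reached 985 to 2384 FPKM in petals and 7.13 to 20.3 FPKM in seedlings. Petal libraries also held pollen and anther transcripts, with a summed level of 946 to 2842 FPKM at ZT4 and 1035 to 4983 FPKM at ZT16 over 9 markers, of which MS1, AMS, MS2 and AT5G07230, all of the anther, were at 0 in every petal library.

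In petals, members were called between the times of day and none between genotypes. Over the 3 genotypes, MYC3 and JAM1 rose from ZT4 to ZT16, MYC4 and MYC2 fell, and JAM2, JAM3 and COI1 were not called. These are 4 of the 7 members tested, where 33.5% of all 17876 genes tested were called (19.9% higher and 13.7% lower at ZT16). The members' share is above the background, but 7 genes give a share little precision, and nothing particular to the members is read from it.

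MYC3 gave the clearest separation. At ZT4 its level was 18.1 and 24.0 FPKM in Col-0, 21.2 and 23.6 in 35S:CO and 24.1 and 35.7 in co-10. At ZT16 it was 51.3 and 42.4 FPKM in Col-0, 38.9 and 39.6 in 35S:CO and 36.4 and 47.2 in co-10. All 6 ZT16 libraries lay above all 6 ZT4 libraries. The log2 difference was 0.80 ± 0.17 (SE; adjusted p = 0.00419).

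MYC4, its closest relative in sequence, moved the other way. Its ZT4 level was 14.2 and 31.1 FPKM in Col-0, 35.0 and 28.0 in 35S:CO and 19.7 and 54.7 in co-10. At ZT16 it was 10.0 and 9.69 FPKM in Col-0, 11.2 and 16.8 in 35S:CO and 13.6 and 6.01 in co-10. Within each genotype both ZT16 libraries lay below both ZT4 libraries, although over all genotypes the times overlapped, between 14.2 and 16.8 FPKM. The log2 difference was -1.30 ± 0.30 (SE; adjusted p = 0.0072), the largest among the members.

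MYC2, the best known activator of the family, was at 38.6 and 60.3 FPKM in Col-0, 43.8 and 36.4 in 35S:CO and 56.0 and 88.7 in co-10 at ZT4. At ZT16 it was at 32.5 and 31.7 FPKM in Col-0, 32.1 and 37.3 in 35S:CO and 40.9 and 34.2 in co-10. The ZT16 values kept to a narrow band, and the ZT4 values spread upwards from it, with overlap only in 35S:CO among values of the same genotype. The log2 difference was -0.56 ± 0.18 (SE; adjusted p = 0.0357). Its call was lost with 9 of the 12 libraries left out in turn: Col-0 ZT4 replicate 2 (adjusted p = 0.0862), 35S:CO ZT4 replicates 1 (0.0959) and 2 (0.0554), co-10 ZT4 replicate 2 (0.0778), Col-0 ZT16 replicates 1 (0.0667) and 2 (0.071), 35S:CO ZT16 replicates 1 (0.101) and 2 (0.0642), and co-10 ZT16 replicate 2 (0.0756). The difference stayed between -0.67 and -0.45 throughout. It was lost as well when levels were rescaled without ribosomal RNA loci (0.0731), or with an untrended prior (0.0564).

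Co-10 ZT4 replicate 2, the shallowest library, held the highest ZT4 value of MYC2, MYC3, MYC4, JAM1, JAM2, JAM3 and COI1. Without it MYC2 stood at -0.45, MYC3 stood at 0.89 (adjusted p = 0.00273), MYC4 at -1.06 (0.0121) and JAM1 at 1.23 (0.00823).

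JAM1, a repressor of MYC2 targets, was at 1.74 and 5.98 FPKM in Col-0, 2.59 and 2.90 in 35S:CO and 2.99 and 6.84 in co-10 at ZT4. At ZT16 it was at 12.7 and 8.91 FPKM in Col-0, 4.54 and 6.22 in 35S:CO and 8.12 and 13.2 in co-10. Within each genotype both ZT16 libraries were above both ZT4 libraries. The log2 difference was 1.07 ± 0.29 (SE; adjusted p = 0.0171), and without 35S:CO ZT16 replicate 2 it was 1.00 (adjusted p = 0.0508).

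The other repressors and the receptor were not called. JAM2 ran from 2.27 to 8.29 FPKM (median 4.60) at ZT4 and from 3.51 to 9.44 (median 8.12) at ZT16, with a log2 difference of 0.46 ± 0.29 (SE; adjusted p = 0.250). JAM3 ran from 17.7 to 29.0 FPKM (median 21.4) and from 18.2 to 26.6 (median 21.7), a log2 difference of 0.01 ± 0.18 (SE; adjusted p = 0.967). COI1 ran from 9.20 to 19.0 FPKM (median 14.8) and from 9.11 to 14.0 (median 10.8), a log2 difference of -0.30 ± 0.22 (SE; adjusted p = 0.319). The times overlapped for all 3 genes. MYC5 was listed at 0 in 10 petal libraries and at 0.0248 and 0.0581 FPKM in the other 2, both co-10 at ZT16, and was not tested.

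**Figure D1:**
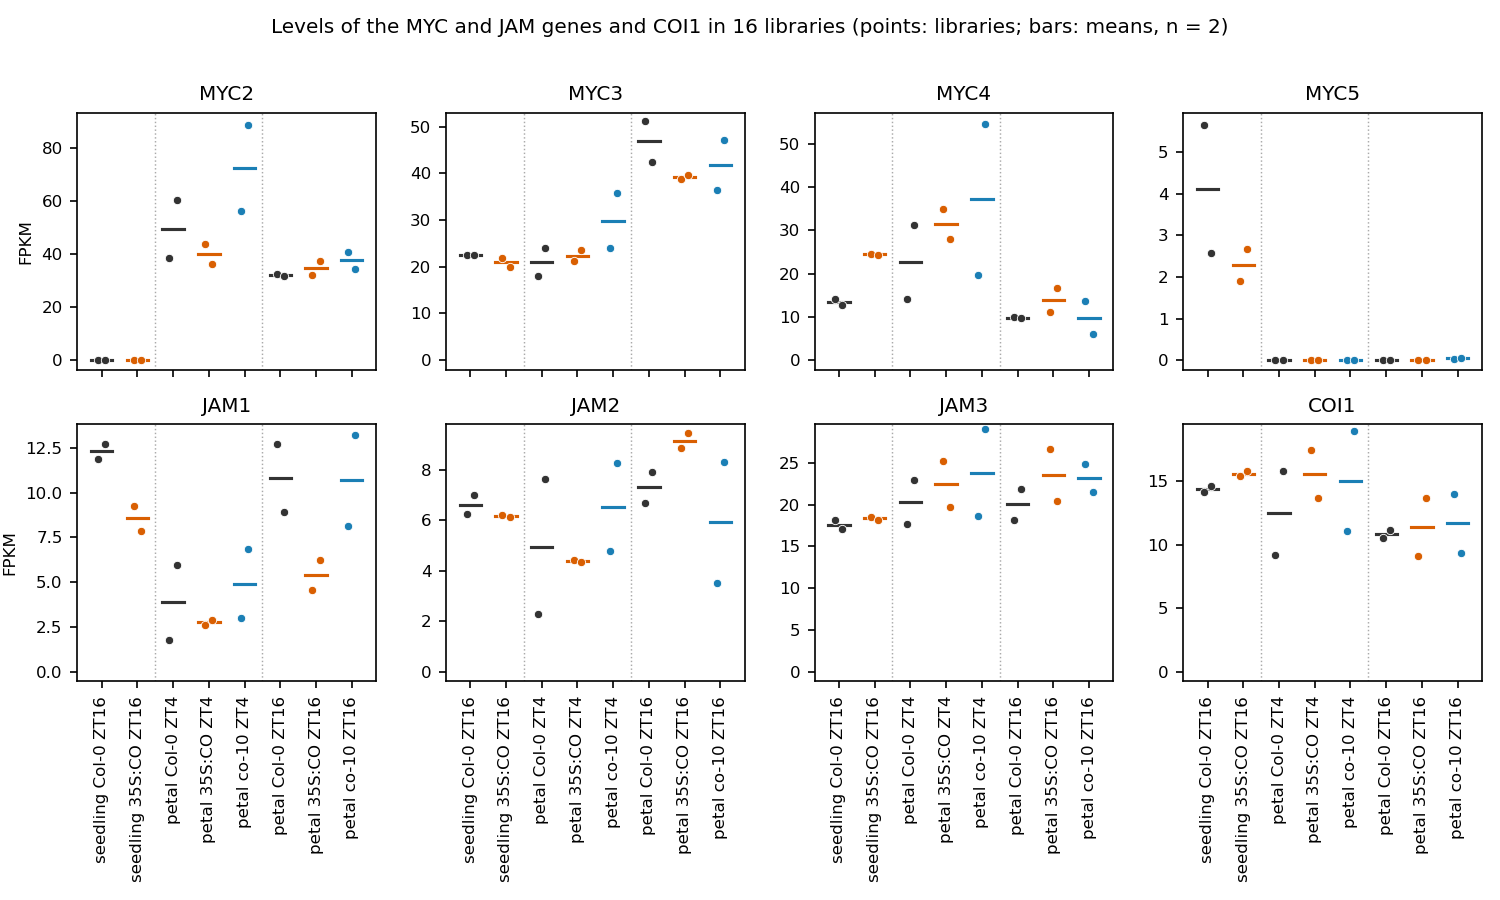
Level of each of the 8 members in every library, in FPKM on a linear axis for each gene, with 1 point per library and a bar at the mean of each group of 2. The 6 petal libraries at ZT16 lie above the 6 at ZT4 for MYC3, MYC2 stands at 0 in all 4 seedling libraries, and MYC5 stands at 1.90 to 5.65 FPKM in seedlings and at 0.0581 FPKM or less in petals.

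Tested in 1 genotype at a time, fewer members passed. In Col-0, where 15.4% of all genes were called, MYC3 rose by 1.12 ± 0.29 on the log2 scale (SE; adjusted p = 0.0249) and was the 1 member called of 7. JAM1 had 1.42 ± 0.51 (0.0865), MYC4 -1.02 ± 0.52 (0.217) and MYC2 -0.57 ± 0.31 (0.249). In 35S:CO limma called 0 of 7 members, where 4.23% of all genes were called, and MYC3 was the 1 member at an unadjusted p under 0.05, at 0.78 ± 0.29 (adjusted p = 0.170). In co-10 limma called 0 of 7, where 13.3% of all genes were called, and 2 members were at an unadjusted p under 0.05. These were MYC4 at -1.75 ± 0.52 (adjusted p = 0.0501) and MYC2 at -0.90 ± 0.31 (0.0859). Single libraries decided these values: without co-10 ZT4 replicate 1, MYC4 was at -2.46 (0.00992) and MYC2 at -1.22 (0.0367). Without co-10 ZT16 replicate 1, MYC4 was at -2.27 (0.03), and quantile normalization also put it past the threshold (0.0311). In Col-0, JAM1 was at 2.09 (0.0385) without ZT4 replicate 2.

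The difference between genotypes in the response to time was itself tested. For 35S:CO against Col-0, limma called 0 of 7 members, 0 were at an unadjusted p under 0.05, and 0.0224% of all genes were called. For co-10 against Col-0 the counts were also 0 and 0 of 7 members, with 0.0224% of all genes called. The larger estimate for MYC3 in Col-0 and for MYC4 in co-10 is therefore not shown to differ from that in the other genotypes. The call for MYC3 in Col-0 was lost without Col-0 ZT4 replicate 1 (adjusted p = 0.150), ZT16 replicate 1 (0.136) or ZT16 replicate 2 (0.0671), each of which leaves 1 library in an arm.

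**Figure D2:**
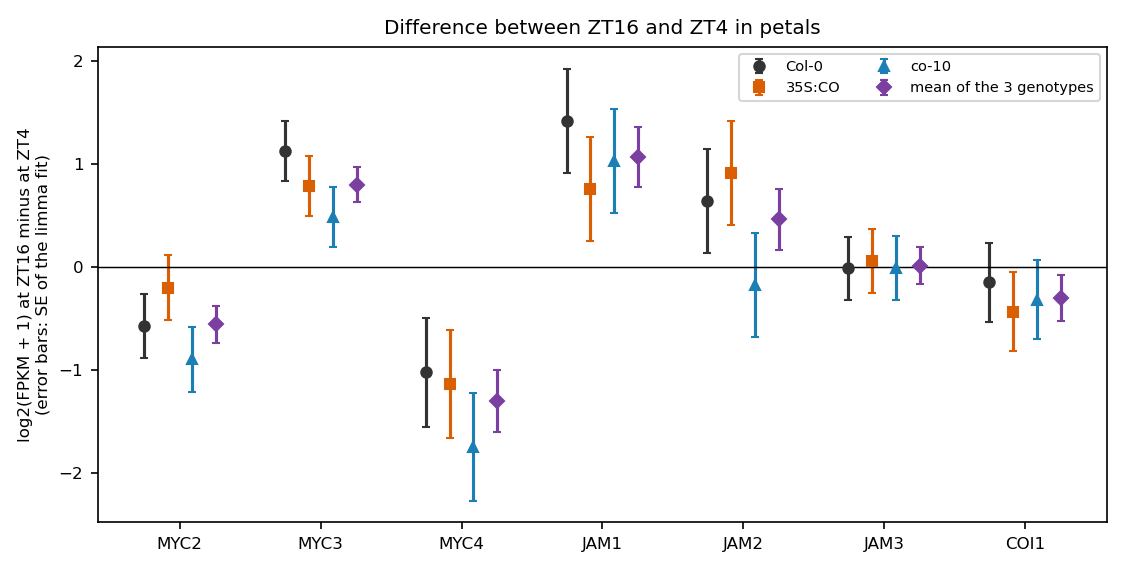
Log2 difference of FPKM + 1 between ZT16 and ZT4 in petals for the 7 members tested, with points for Col-0, 35S:CO, co-10 and the mean over genotypes and bars of 1 SE. MYC3 and JAM1 lie above 0 and MYC4 and MYC2 below 0 in every genotype, with the mean running from -1.30 for MYC4 to 1.07 for JAM1.

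With MYC3 higher and MYC4 lower at ZT16, the make-up of the MYC transcript pool differed between the times. At ZT4, MYC2 held 41.4% to 56.2% of the summed FPKM of MYC2, MYC3 and MYC4, MYC3 19.9% to 26.8% and MYC4 19.7% to 35.0%. At ZT16, MYC2 held 34.6% to 45.0%, MYC3 40.0% to 54.7% and MYC4 6.87% to 17.9%. The shares of MYC3 and of MYC4 did not overlap between the times. The ratio of MYC3 to MYC4 was 0.606 to 1.28 at ZT4 and 2.36 to 7.85 at ZT16. The summed level itself did overlap, at 70.9 to 179 FPKM (median 99.9) and 82.2 to 93.8 FPKM (median 89.2).

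JAM3 was the most abundant JAM transcript at both times, with 62.8% to 81.5% of the JAM sum at ZT4 and 48.4% to 68.2% at ZT16. JAM1 held 8.01% to 16.4% at ZT4 and 11.3% to 33.8% at ZT16. The ratio of the MYC sum to the JAM sum was 3.10 to 4.06 at ZT4 and 2.03 to 2.59 at ZT16, so that the times did not overlap. That separation rests on MYC2, whose values carry a limit given below. Without MYC2 in the sum the ratio was 1.49 to 2.05 at ZT4 and 1.24 to 1.63 at ZT16, which overlapped. These shares follow from the levels already given and are descriptions, not further tests. Neither sum holds the bHLH relative AT4G00870, described below, at 1.89 to 6.84 FPKM at ZT4 and 46.1 to 92.8 FPKM at ZT16. The ratio is therefore one of these named genes and not of the whole family.

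**Figure D3:**
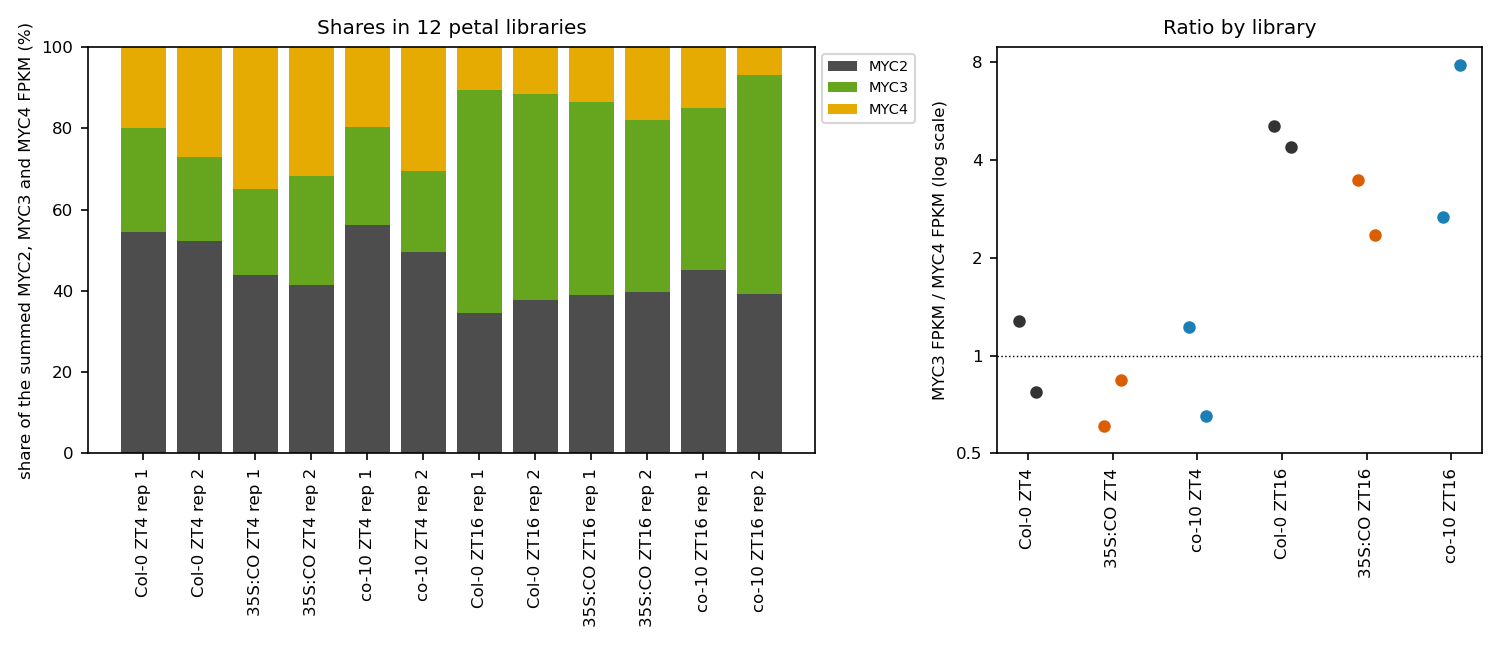
Left, percent of the summed FPKM of MYC2, MYC3 and MYC4 held by each gene in each of the 12 petal libraries; right, ratio of MYC3 to MYC4 FPKM in the same libraries on a log axis. The MYC3 share is at most 26.8% at ZT4 and at least 40.0% at ZT16, and the ratio is at most 1.28 at ZT4 and at least 2.36 at ZT16.

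Green-tissue, pollen and some other marker transcripts moved with the time of day as well. Of all genes, 19.9% were called higher at ZT16 and 13.7% lower. The summed level of 5 photosynthesis markers was 2472 to 4208 FPKM at ZT4 and 531 to 2705 FPKM at ZT16, and all 5 were called lower. Of 5 pollen markers tested, 3 were called higher at ZT16, namely TUA1 (log2 difference 0.70), ACT4 (0.64) and ACT12 (0.75). Of the petal identity genes, PI (-0.74) and SEP3 (-1.34) were called lower, and AP3, SEP1 and SEP2 were not called. Of the carpel and ovule markers tested, SPT (2.42) was called higher, and STK, SHP1, SHP2 and CRC were not called. The part of cell composition in the members' differences was not tested, and in bulk petals fewer cells of a type and less RNA per cell cannot be told apart.

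No member was called between genotypes in petals. In 35S:CO against Col-0, limma called 0 of 7 members at ZT4 and at ZT16, where 0.106% and 1.14% of all genes were called. In co-10 against Col-0 it called 0 of 7 at either time, where 0.0224% of all genes were called at each. In 35S:CO against co-10 it called 0 of 7, where 0.319% of all genes were called at ZT4 and 0.929% at ZT16. Over both times it called 0 of 7 in 35S:CO against the mean of the other genotypes and 0 of 7 in co-10 against Col-0, with 2.19% and 0.0392% of all genes called. With so few genes called, counts of 0 of 7 say little about the members.

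Over these 8 comparisons, 1 member difference had an unadjusted p under 0.05. MYC2 at ZT4 was at 36.4 and 43.8 FPKM in 35S:CO and at 56.0 and 88.7 in co-10, which did not overlap, with a log2 difference of -0.80 ± 0.31 (SE; adjusted p = 0.373). JAM1 at ZT16 was at 4.54 and 6.22 FPKM in 35S:CO, below the 8.91 and 12.7 of Col-0 and the 8.12 and 13.2 of co-10. The log2 difference was -0.88 ± 0.51 from Col-0 (SE; adjusted p = 0.665) and -0.85 ± 0.51 from co-10 (0.765), and over both times it was -0.63 ± 0.31 (0.459). Summed pollen markers were also lower in 35S:CO petals at ZT16, at 1035 to 1644 FPKM, than in Col-0 (2604 to 3104) and co-10 (2622 to 4983), and their part in JAM1 was not tested. For the other members the log2 differences ran from -0.38 to 0.47 for MYC3, -0.10 to 0.62 for MYC4, -0.44 to 0.65 for JAM2, -0.06 to 0.22 for JAM3 and -0.03 to 0.33 for COI1.

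In seedlings, MYC4 was higher in 35S:CO than in Col-0. MYC4 was at 14.2 and 12.7 FPKM in Col-0 and at 24.6 and 24.3 in 35S:CO, groups that did not overlap. It rose by 0.82 ± 0.09 on the log2 scale (SE; adjusted p = 0.0101). It was the 1 member called of 7 tested, where 11.7% of all 19214 genes were called (5.5% higher and 6.22% lower in 35S:CO), so the count itself is close to the background. The call was lost without 35S:CO replicate 1 (adjusted p = 0.143) or replicate 2 (0.114), which leaves 1 library in that arm. It was also lost when the spread was estimated from all 16 libraries, petals included (adjusted p = 0.933). The difference itself ran from 0.74 to 0.90 over all its alternatives. Other transcripts differed beside it. Of the petal identity genes, SEP1 was called higher in 35S:CO (log2 difference 2.43), over a seedling range of 0.597 to 9.02 FPKM, and SEP3 was not called. AP3 (0.94) and PI (0.98) were near the floor, at 0.111 to 1.24 and 0.104 to 1.48 FPKM in seedlings. They reached the 1 FPKM filter in 35S:CO alone, so their differences are given as a description only. The summed level of the petal identity genes was 19.0 to 20.3 FPKM in 35S:CO against 7.13 to 9.32 in Col-0. Of 5 green-tissue markers 3 were called higher as well, LHCB1.1 (1.85), LHCB3 (2.30) and PSAD1 (0.55). The part of either list in MYC4 was not tested.

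JAM1 was at 11.9 and 12.7 FPKM in Col-0 seedlings and at 9.27 and 7.87 in 35S:CO, which did not overlap, with a log2 difference of -0.48 ± 0.11 (SE; adjusted p = 0.0538). It was not called, but was past the threshold without Col-0 replicate 1 (-0.52; adjusted p = 0.0429). MYC5, at 5.65 and 2.58 FPKM in Col-0 and 1.90 and 2.67 in 35S:CO, had -0.58 ± 0.33 (0.308) and overlapping groups; without Col-0 replicate 2 it was -1.03 (0.0191). MYC3 was at 22.5 in both Col-0 libraries and at 21.8 and 20.0 FPKM in 35S:CO, at -0.10 ± 0.08 (0.458). JAM2 had -0.08 ± 0.10 (0.614), JAM3 0.06 ± 0.08 (0.665) and COI1 0.11 ± 0.08 (0.405). The ratio of MYC3 to MYC4 was 1.58 to 1.78 in Col-0 seedlings and 0.824 to 0.886 in 35S:CO seedlings.

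MYC2 was listed at 0 FPKM in all 4 seedling libraries, while it was among the most abundant members in petals. Genes that all cells use were not at 0 in these seedlings, with ACT2 at 220 to 278, UBQ10 at 187 to 291 and TIP41 at 19.3 to 21.6 FPKM. In TAIR10.1 the locus AT1G32630 lies on the opposite strand, chr1:11797330-11801359, and covers 98.5% of MYC2. AT1G32630 was at 19.2 and 12.8 FPKM in Col-0 seedlings and 25.9 and 23.1 in 35S:CO, but at 1.00 to 2.93 FPKM in petals. The loci thus took opposite levels in the tissues. Since no source used here says whether strand was used in counting, reads of the pair cannot be told apart. The MYC2 values in petals, and the shares and differences taken from them, carry the same limit.

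Other loci showed the same pattern of overlap. Of 6841 loci at 5 FPKM or more in every petal library, 145 were listed at 0 in all 4 seedling libraries. Among these 145, 21 (14.5%) had an opposite-strand gene over at least 80% of their length, against 84 of the other 6696 (1.25%). For these reasons no fold is given for MYC2 between tissues, and its value of 0 is not read as absence. The sum of MYC2 and AT1G32630, which in seedlings is AT1G32630 alone, was 1.05 higher in petals than in seedlings of Col-0 on the log2 scale (adjusted p = 0.00644) and 0.54 higher in 35S:CO (0.116).

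**Figure D4:**
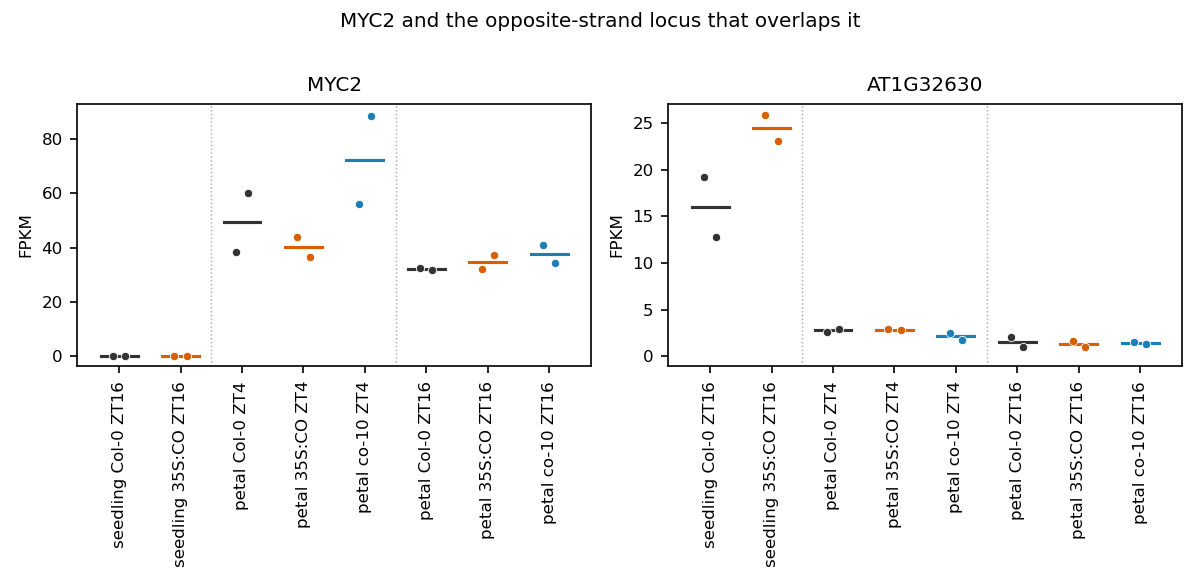
FPKM of MYC2 and of AT1G32630, the locus that covers it on the opposite strand, in each of the 16 libraries. MYC2 is at 0 in the 4 seedling libraries, where AT1G32630 stands at 12.8 to 25.9 FPKM, and at 31.7 to 88.7 in petals, where AT1G32630 stands at 1.00 to 2.93.

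Between tissues at ZT16, MYC3 was higher in petals. Of the 8 members 3 were called in Col-0 and 3 in 35S:CO, MYC2, MYC3 and MYC5 in both, against 64.5% and 61.3% of all 21200 genes. MYC2 reached the 1 FPKM filter in petals alone and MYC5 in seedlings alone. The count is therefore not read against the background share. MYC3 was 1.02 ± 0.23 higher in petals of Col-0 (log2; SE; adjusted p = 0.00258) and 0.88 ± 0.23 higher in 35S:CO (0.00684). The median of all genes lay at -0.74 and -0.65, and under quantile normalization, which moved it by 0.67 and 0.59, MYC3 was still called in both. MYC5 was listed at 0 in all 4 of these petal libraries and is given no fold. Its call in 35S:CO was lost under quantile normalization (adjusted p = 0.0555). The remaining call was MYC2, whose seedling value of 0 is uncertain.

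The other members were not called, which does not show that their levels were alike. MYC4 stood at -0.41 ± 0.49 in Col-0 and -0.79 ± 0.49 in 35S:CO, and COI1 at -0.38 ± 0.33 (adjusted p = 0.324) and -0.45 ± 0.33 (0.257). JAM1 stood at -0.19 and -0.59, JAM2 at 0.12 and 0.50 and JAM3 at 0.17 and 0.33. The test of whether 35S:CO acted differently in the tissues called 0 of 8 members, with 0 at an unadjusted p under 0.05 and 1.55% of all genes called. MYC4 was called in seedlings and not in petals, but those responses are not shown to differ. MYC5 was at 0 in the Col-0 and 35S:CO petals at ZT16. Its value in this test was 0.58, and 1.03 without Col-0 seedling replicate 2. Both are its seedling differences with the sign turned, and say nothing about petals.

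Over all 8 groups, MYC3 was highest in petals at ZT16, at 46.8 ± 6.26 FPKM in Col-0, 41.8 ± 7.69 in co-10 and 39.2 ± 0.520 in 35S:CO (SD, n = 2). The remaining groups followed at 29.9 ± 8.22 in co-10 petals at ZT4 and 20.9 to 22.5 in the others. MYC4 was highest in co-10 petals at ZT4 (37.2 ± 24.8 FPKM; SD, n = 2), whose replicates differed most, and lowest in co-10 petals at ZT16 (9.80 ± 5.36). MYC2 was highest in co-10 petals at ZT4 (72.4 ± 23.1) and, outside seedlings, lowest in Col-0 petals at ZT16 (32.1 ± 0.565).

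JAM1 was highest in Col-0 seedlings (12.3 ± 0.613 FPKM; SD, n = 2) and lowest in 35S:CO petals at ZT4 (2.75 ± 0.216). JAM2 ran from 9.14 ± 0.423 in 35S:CO petals at ZT16 to 4.38 ± 0.0741 in 35S:CO petals at ZT4. JAM3 ran from 23.8 ± 7.33 to 17.6 ± 0.754, and COI1 from 15.6 ± 0.255 to 10.8 ± 0.450. Sorting by the mean sets like groups side by side, so overlap of neighbours in these orders says little. Of 7 neighbouring pairs, the libraries overlapped in 6 for MYC2, JAM1, JAM2 and JAM3, in 5 for MYC3, MYC4 and MYC5, and in 7 for COI1. For MYC2 and MYC5 these include pairs of groups listed at 0 throughout.

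The JAZ repressors, which bind the MYC and JAM proteins, were called in both directions with time in petals. Of 11 tested of 13, 3 were higher and 2 lower at ZT16, where 19.9% of all genes were higher and 13.7% lower. The median log2 difference was 0.38 against 0.12 for all genes. JAZ11 rose by 0.96 ± 0.19 (SE; adjusted p = 0.0025), from 14.8 to 31.0 FPKM at ZT4 to 31.6 to 48.6 at ZT16, with no overlap. JAZ10, an early jasmonate-responsive gene, rose by 0.59 ± 0.17 (0.0218). JAZ6 fell by 0.79 ± 0.19 (0.00954). JAZ9 fell by 0.66 ± 0.17 (0.014) over the genotypes, with -0.97 in Col-0 and -0.97 in co-10 but -0.03 ± 0.30 in 35S:CO, where it was at 132 and 131 FPKM at ZT4 and 117 and 142 at ZT16.

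Of 7 genes for the receptor and corepressor complexes, 2 were higher at ZT16 and 0 lower, near the share of all genes called (33.5%, with 19.9% higher), and the median of 0.15 was near the 0.12 of all genes. The corepressor TPL rose by 1.14 ± 0.25 (SE; adjusted p = 0.00518), from 14.3 to 49.9 FPKM at ZT4 to 60.0 to 89.2 at ZT16. The Mediator subunit MED25, which binds MYC2 to activate transcription, rose by 0.77 ± 0.19 (0.00903), from 9.82 to 13.6 FPKM to 15.0 to 25.8. Neither gene overlapped between the times. Of 4 genes that set the stability of MYC proteins, limma called 0, with 0 at an unadjusted p under 0.05; the deubiquitinases UBP12 and UBP13 stood at 0.16 ± 0.18 and 0.39 ± 0.21.

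Of 13 jasmonate biosynthesis genes, 3 were higher at ZT16 and 0 lower, a share below the 33.5% of all genes called and near the 19.9% called higher, so the list as a whole did not stand out. The lipoxygenase LOX4 rose by 1.87 ± 0.23 (SE; adjusted p = 1.43e-04), from 1.21 to 3.20 FPKM to 3.67 to 28.9, with 2.69 in Col-0, 2.40 in co-10 and 0.51 ± 0.40 in 35S:CO. The lipoxygenase LOX2 rose by 0.94 ± 0.30 (0.0323), and the acyl-CoA oxidase ACX1 rose by 0.74 ± 0.17 (0.00633), from 42.4 to 77.3 FPKM to 82.0 to 133. LOX4 and ACX1 did not overlap between the times.

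Of 4 bHLH relatives tested of 6, 1 was called higher and 1 lower at ZT16, where 19.9% and 13.7% of all genes were. With 4 genes the count is no result about the list. Both genes moved by more than any member. AT4G00870, a bHLH gene that RefSeq calls bHLH14, stood at 1.89 to 6.84 FPKM at ZT4 and at 46.1 to 92.8 FPKM at ZT16 in petals. It rose by 3.86 ± 0.27 (SE; adjusted p = 3.96e-06) and was at 1.21 to 2.12 FPKM in seedlings. EGL3, a regulator of trichomes and anthocyanin, stood at 4.12 to 10.3 FPKM at ZT4 and at 0 to 1.66 FPKM at ZT16, and fell by 2.14 ± 0.31 (3.86e-04). The basic region of AT4G00870, printed as above for comparison with the members, is
AT4G00870: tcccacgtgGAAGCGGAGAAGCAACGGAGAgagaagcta

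Among 6 MYB partners tested of 9, 2 were higher and 2 lower at ZT16, where 33.5% of all genes were called. The 2 higher include MYB51, which passed the filter at ZT16 alone, so the count is no result about the list. MYB24, a stamen and petal MYB that acts downstream of jasmonate, rose by 3.11 ± 0.19 (SE; adjusted p = 2.32e-06), from 9.44 to 15.7 FPKM to 75.6 to 141. MYB57, its close relative, fell by 3.28 ± 0.26 (8.88e-06), from 430 to 994 FPKM to 22.2 to 217, with -4.36 in Col-0, -4.02 in co-10 and -1.45 in 35S:CO. MYB21, the other member of that group, fell by 1.06 ± 0.36 (0.0417) over the genotypes, with -1.76 in Col-0 and -1.55 in co-10. In 35S:CO its difference was 0.14 ± 0.62, from 183 and 103 FPKM at ZT4 to 140 and 163 at ZT16, which overlapped. MYB51, a glucosinolate regulator, was near the floor, at 0 to 0.442 FPKM at ZT4 and 0 to 3.35 FPKM at ZT16. It reached the 1 FPKM filter at ZT16 alone, so its differences are given as a description only. They were 0.97 ± 0.26 (0.0148) over the genotypes, 1.52 in Col-0, 1.42 in co-10 and -0.05 ± 0.45 in 35S:CO.

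Of 12 targets tested of 13, 3 were higher and 1 lower, a share like the 33.5% of all genes called. The 3 higher include PDF1.2, which passed the filter at ZT16 alone, so the count is no result about the targets. The senescence-linked factor NAC055, a direct target of MYC2, rose by 1.59 ± 0.27 (SE; adjusted p = 0.00115), from 64.3 to 123 FPKM to 135 to 483. The jasmonate-induced oxygenase JRG21 rose by 1.23 ± 0.37 (0.0253). The defensin PDF1.2, which MYC2 represses, was near the floor, at 0 to 0.799 FPKM at ZT4 and 0 to 4.68 FPKM at ZT16. It reached the 1 FPKM filter at ZT16 alone, so its difference of 1.34 ± 0.30 is given as a description only. The catalase CAT2, which declines in leaf senescence, fell by 0.91 ± 0.18 (0.00302) over the genotypes. It was at 49.9 and 58.2 FPKM at ZT4 and 21.2 and 28.3 at ZT16 in Col-0, and at 69.0 and 115 and then 26.9 and 26.0 in co-10. In 35S:CO it was at 334 and 262 FPKM at ZT4 and 354 and 278 at ZT16, a log2 difference of 0.08 ± 0.32.

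The difference in time response between 35S:CO and Col-0 was not called for JAZ9 (adjusted p = 0.743), LOX4 (0.361), MYB57 (0.222), MYB21 (0.753), MYB51 (0.66) or CAT2 (0.602), so the genotypes are not shown to differ for these genes.

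**Figure D5:**
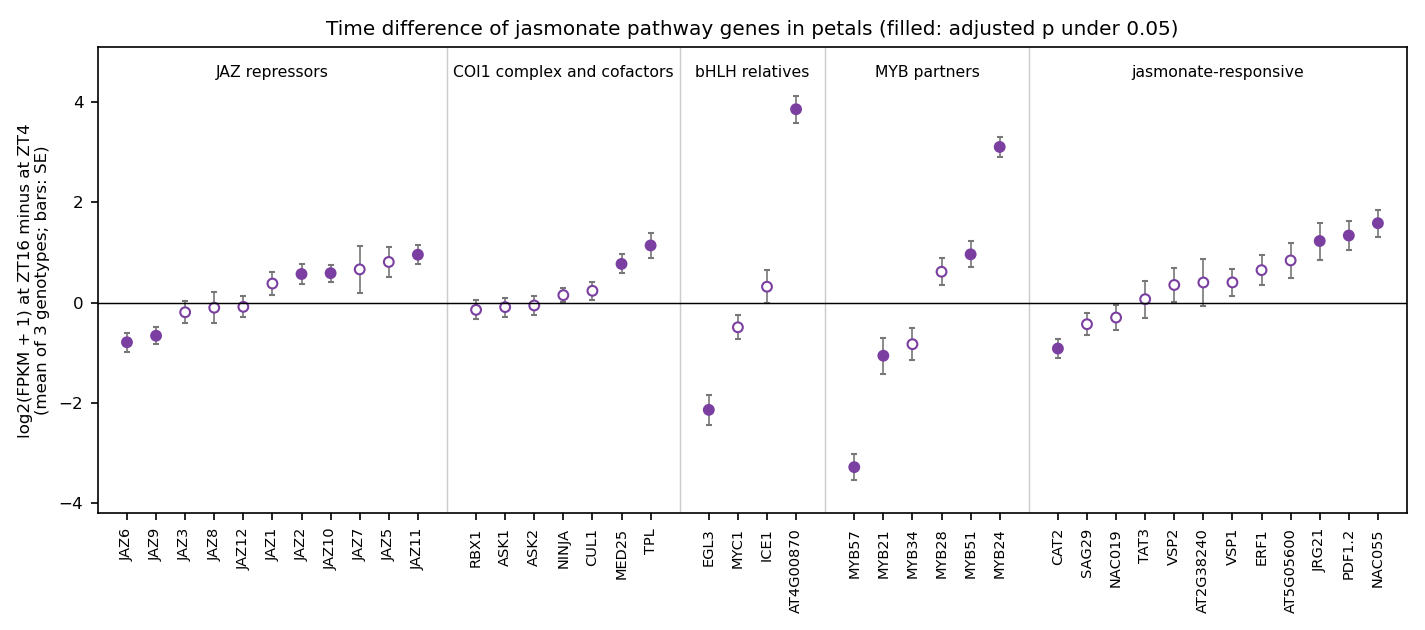
Log2 difference of FPKM + 1 between ZT16 and ZT4 in petals over the 3 genotypes for every tested gene of 5 jasmonate lists, 1 point per gene with a bar of 1 SE, filled where called. The called genes lie on both sides of 0 in the JAZ, bHLH, MYB and target lists, from -3.28 for MYB57 to 3.86 for AT4G00870, and above 0 in the list of the COI1 complex and cofactors.

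In seedlings, 7 of the 11 JAZ genes tested were called between 35S:CO and Col-0. Of these, 6 were higher and 1 lower in 35S:CO, where 11.7% of all genes were called (5.5% higher and 6.22% lower), and the median of the list was 0.63 against -0.09 for all genes. JAZ9 was at 24.4 and 17.2 FPKM in Col-0 and 161 and 144 in 35S:CO, and rose by 2.84 ± 0.18 (SE; adjusted p = 0.0028). JAZ10 was at 1.24 and 1.37 FPKM in Col-0 and 10.7 and 6.20 in 35S:CO, and rose by 1.99 ± 0.24 (0.0143). JAZ1 rose by 1.21 ± 0.20 and JAZ5 by 0.99. JAZ4 was the 1 gene that fell, by 0.80 ± 0.11 (0.0177), and is named here after its value was seen.

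Of 11 targets tested in seedlings, 6 were higher in 35S:CO and 0 lower, where 5.5% of all genes were called higher, with a median of 2.29 against -0.09 for all genes. SAG29, a sugar transporter of senescing tissue, rose by 4.61 ± 0.27 (SE). JRG21 rose by 3.38 ± 0.34, its relative AT2G38240 (JOX4) by 2.93 ± 0.18 and NAC019, a partner of NAC055, by 2.29 ± 0.29. Over the seedling libraries JRG21 ran from 0.201 to 17.9 FPKM, AT2G38240 from 0.18 to 9.92 and NAC019 from 0.556 to 10.1. AT2G38240 reached the 1 FPKM filter in 35S:CO alone, so its difference is given as a description only. The count of 6 and the median include it and are descriptions as well. Limma called OPR3, a reductase of jasmonate synthesis, at 0.64 ± 0.09 (adjusted p = 0.0185) as the 1 called of 13 biosynthesis genes, near or below the background share, and MYB28 at -0.81 ± 0.09 (0.0108) as the 1 of 5 MYB genes. It called 0 of 7 complex genes, 0 of 4 stability genes and 0 of 4 bHLH relatives, with 0 at an unadjusted p under 0.05 in each. Examples are the COI1 complex subunits ASK1 at 0.16 ± 0.08 and CUL1 at 0.07 ± 0.08. The lists are described by their counts and medians, and were not tested as sets.

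In petals, 35S:CO against the mean of the other genotypes gave 0 of 11 JAZ genes called by limma, with 1 at an unadjusted p under 0.05. Of all genes 2.19% were called in this comparison, so 0 of 11 says little about the JAZ genes. JAZ1 stood at -0.41 ± 0.24 and JAZ9 at 0.27 ± 0.18. In biosynthesis the allene oxide synthase AOS fell by 1.21 ± 0.21 (SE; adjusted p = 0.0124) and the CoA ligase OPCL1 fell by 1.08 ± 0.25 (0.0488). Among targets, SAG29 rose by 1.41 ± 0.24 and CAT2 by 2.82 ± 0.19.

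Upstream of the members, 250 bases before the annotated start were searched on both strands for 3 motifs. The G-box CACGTG, which MYC and JAM proteins bind, was in none of the 8 windows, and in 6.49% of all 27443 windows of that length. The CONSTANS-responsive element, taken as TGTG and ATG with 2 or 3 bases between them, was in the JAM3 window alone, 185 bases before the start, and in 7.04% of all windows. The evening element AAATATCT was in none, and in 4.79% of all windows. The AT4G00870 window held 1 G-box, 114 bases before the start. These counts say only whether those letters lie in these windows.

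The windows of MYC3 (chr5:18973772-18974021, plus strand) and MYC4 (chr4:9935686-9935935, minus strand) are shown because these closest relatives moved in opposite directions with time. Neither holds any of the 3 motifs, so no letters are in capitals, and both read 5′ to 3′ on the gene's strand in TAIR10.1.
MYC3: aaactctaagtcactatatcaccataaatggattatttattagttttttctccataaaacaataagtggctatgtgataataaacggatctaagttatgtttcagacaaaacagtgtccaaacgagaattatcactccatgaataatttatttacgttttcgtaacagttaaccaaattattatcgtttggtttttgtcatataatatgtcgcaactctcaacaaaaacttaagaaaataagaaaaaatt
MYC4: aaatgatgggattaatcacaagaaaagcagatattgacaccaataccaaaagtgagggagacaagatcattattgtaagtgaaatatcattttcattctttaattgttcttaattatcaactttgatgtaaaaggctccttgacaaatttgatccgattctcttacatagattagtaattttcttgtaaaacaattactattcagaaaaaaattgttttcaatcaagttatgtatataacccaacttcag

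Among the members themselves, over the 12 petal libraries, levels of MYC3 and JAM1 had a Pearson correlation of 0.907 on the log2 scale, and MYC4 and COI1 one of 0.861. MYC2 and MYC4 stood at 0.797, MYC2 and COI1 at 0.689 and MYC3 and JAM2 at 0.687. MYC3 stood at -0.557 with MYC4 and at -0.329 with MYC2. These are descriptions over libraries that share the time groups and the depth differences given above.

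The genes whose levels over the 12 petal libraries were most like each member's are named by their Pearson correlation, with no claim on function. For MYC2 they were AT1G06000 (0.9402), ALDH3I1 (0.9392) and AT5G39080 (0.932). For MYC3 they were AT3G56140 (0.9858), AT5G25560 (0.9768) and AT1G73980 (0.9734). For MYC4 they were PHT2;1 (0.9624), CRY3 (0.9517) and CER3 (0.9516), and for COI1 AT1G52620 (0.9768), AT2G19390 (0.9311) and CYCD2;1 (0.9295). The values for JAM1 were as high, with AT4G13630 (0.9631), LOX2 (0.9623) and AT5G13760 (0.9549). JAM2 and JAM3 had no gene above 0.8812, with AT2G35680 (0.8796), AT5G42010 (0.8559) and AT3G52120 (0.8503) for JAM2 and AT2G40770 (0.8812), SDG14 (0.8769) and PUB38 (0.853) for JAM3. Over all 16 libraries the closest were AAO3 for MYC3 (0.972), IRX14 for MYC4 (0.9198) and AT1G52620 for COI1 (0.9324).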

How the data were processed

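Levels are FPKM as the authors deposited them, 1 column per library, with none of the 16 columns left out; the values themselves gave the unit. HISAT2, FastQC and TAIR10 are named, per the submitters' processing notes; for the quantifier, the annotation release and any use of strand in counting, the sources used here give nothing. Libraries were made with a stranded mRNA kit, per the labels' protocols. Deposited FPKM were taken as log2(FPKM + 1) and tested, for genes that reached 1 FPKM in 2 libraries or more of the fit, with limma 3.58.1 (trended, robust prior; statmod 1.5.0, R 4.3.3). The 3 fits were the 4 seedling libraries (19214 genes), the 12 petal libraries (6 means, 17876 genes) and all 16 (8 means, 21200 genes), giving 18 comparisons that share control libraries. The fits were checked on simulated data.

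Depth was estimated from the steps between low values. Only 45.4% to 50.1% of these in seedlings and 28.2% to 39.1% in petals lay near a whole read, so no counts were recovered, no count test was run and no counting interval is given. Levels of 32548 loci were matched to TAIR10.1 by identifier; sequences, positions and motifs come from RefSeq's TAIR10.1 (Biopython 1.88). Alternatives were the pseudocount, the filter, the scaling, the prior, the spread, the replicate block, each library left out and, after seeing the data, MYC2 summed with AT1G32630. Members and gene lists were chosen with earlier results of these data known. Genes named from the jasmonate lists were chosen as all those called, the 4 largest where more than 4 were called, or those of highest level where none was. For the marker lists, not every called gene is named.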

Additional observations from a re-analysis of the deposited data

How the results depend on the processing

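Of 333 counts of called members under alternatives over the 18 comparisons, 319 were within 1.5 times the count given in the report. Of 240 recomputed member differences that had been called, 220 were still called, 20 were not, and 0 reversed. MYC3 and MYC4 were called for time over genotypes in 18 of 18 alternatives, JAM1 in 17 and MYC2 in 7, with adjusted p up to 0.101 for MYC2. With 1 library left out in turn, the number of members called ran from 0 to 2 in seedlings (1 with all libraries), 0 to 2 for time in Col-0 (1), 0 to 2 for time in co-10 (0), 2 to 4 for time over genotypes (4) and 0 to 1 for the interaction with tissue (0). With the spread from all 16 libraries 0 members were called in seedlings, and 696 genes in place of 2252. With quantile normalization 1 member, MYC4, was called for time in co-10. The share of higher among called genes between tissues was 29.4% in Col-0 and 29.6% in 35S:CO, and 46.6% and 47.1% under quantile normalization. Deviations of same-numbered libraries had correlations of -0.302 to 0.228 in petals and of -0.0164, from 1 pair, in seedlings. With 2 libraries per group this check cannot show that pairing or a batch was absent. With a replicate block 1178 genes in place of 2252 were called in seedlings and 6193 in place of 5997 for time over genotypes, and no member's call changed. Petal libraries of 5220000 and 7680000 estimated reads limit low members such as JAM1 and JAM2 most. With 2 libraries per group, a difference that was not called is not shown to be absent.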
